A study of Homo sapiens with 2 samples.

Results

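The regions described here are the peaks labelled as spanning the 5′ untranslated region and the coding sequence, abbreviated below as 5′UTR-CDS peaks. They come from a list of RNA regions enriched in a catenin immunoprecipitation (IP) of MDA-MB-231 cells. This triple-negative breast cancer line, long established in culture, has mesenchymal features. The series holds 2 samples, whose titles name B-catenin and B-input, each a single library of this line with no treatment named, and its stated purpose was to find long noncoding RNAs that bind catenin. Phenol-alcohol served to extract the RNA, which was then sheared. The peak list belongs to the IP library. The input library on its own was not analysed here. With 1 library per group there was no replicate error and no test between samples, and every interval given below covers counting error only.

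The label was carried by 588 of 6195 listed peaks, each on a transcript of its own, and these transcripts belonged to 288 of the 1658 gene symbols. For each symbol the transcript whose peaks summed to the most tags was kept, where a tag is a sequenced fragment counted in a peak. This left 211 5′UTR-CDS peaks on 211 genes among 2440 peaks, a share of 8.65% (exact Clopper-Pearson 95% interval 7.56 to 9.83%). They held 12110 of 133739 tags, or 9.05%. Positions are counted in nucleotides (nt) along the transcript as listed, and the first listed position is taken as its first base. Whether that position is the 5′ end of the mRNA also for genes on the minus strand of the genome could not be checked here.

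The 5′ untranslated region is the stretch of an mRNA that precedes the start codon, and the small ribosomal subunit usually scans it before translation begins. A peak that spans it and the coding sequence covers the start codon and the first part of the reading frame. Beta-catenin is an armadillo-repeat protein that links cadherins to alpha-catenin at adherens junctions and acts as a transcriptional coactivator in the Wnt pathway.

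At 5 genes the peak began within the first 10 nt of the transcript and RefSeq (GRCh38.p14) gave a single start. Their first 30 bases are shown because they are the mRNA ends that these peaks reached, provided that the RefSeq start is that of the listed transcript, which could not be checked here. Capitals mark an ATG triplet. All 5 genes lie on the plus strand. The windows are chr5:62306206-62306235 for KIF2A, chr10:103396626-103396655 for PDCD11, chr5:146203605-146203634 for RBM27, chr14:39175254-39175283 for PNN and chr4:2843844-2843873 for ADD1.
KIF2A: actctaccccgcgccgtctcacggccccgg
PDCD11: acacttccggaagaattgcactggactgtg
RBM27: agttcctgttaggccccggccgggggagta
PNN: agtctcaagcctgccgcagggagaagATGg
ADD1: agcgccgcaggccgcacccaggtcgggcgg
KIF2A encodes a microtubule-depolymerising kinesin, PDCD11 a ribosome biogenesis factor, RBM27 an RNA-binding protein, PNN the speckle protein pinin and ADD1 the membrane-skeleton protein adducin 1. The share of G and C in these windows was lowest in PDCD11 and highest, at 83.3%, in ADD1. Of the 180 genes with a 5′UTR-CDS peak that were in the RefSeq promoter table, 16.1% had an ATG (read on the mRNA strand) in their first 30 bases, against 20.6% of 1210 other genes with a peak and 23.0% of all 15843 protein-coding genes in that table. The median share of G and C was 66.7% in both groups with a peak and 63.3% over all protein-coding genes. Among genes with several RefSeq starts the one listed at the top of the table was used.

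The positions matched the label in most cases. The 211 peaks started at a median of nt 151, with quartiles at nt 59.5 and 313.5 and a range from nt 2 to 8723. In 155 of them (73.5%, interval 67.0 to 79.3%) the start lay within 300 nt, and in 80 it lay within 100 nt. The summit, the point of highest coverage, had a median of nt 632, and the end a median of nt 1289. Over all 2440 peaks the median start was nt 1089.5 and the median summit nt 1793. On the 86 transcripts that carried more than 1 peak, the 5′UTR-CDS peak preceded every other peak in 81 cases.

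**Figure D1:**
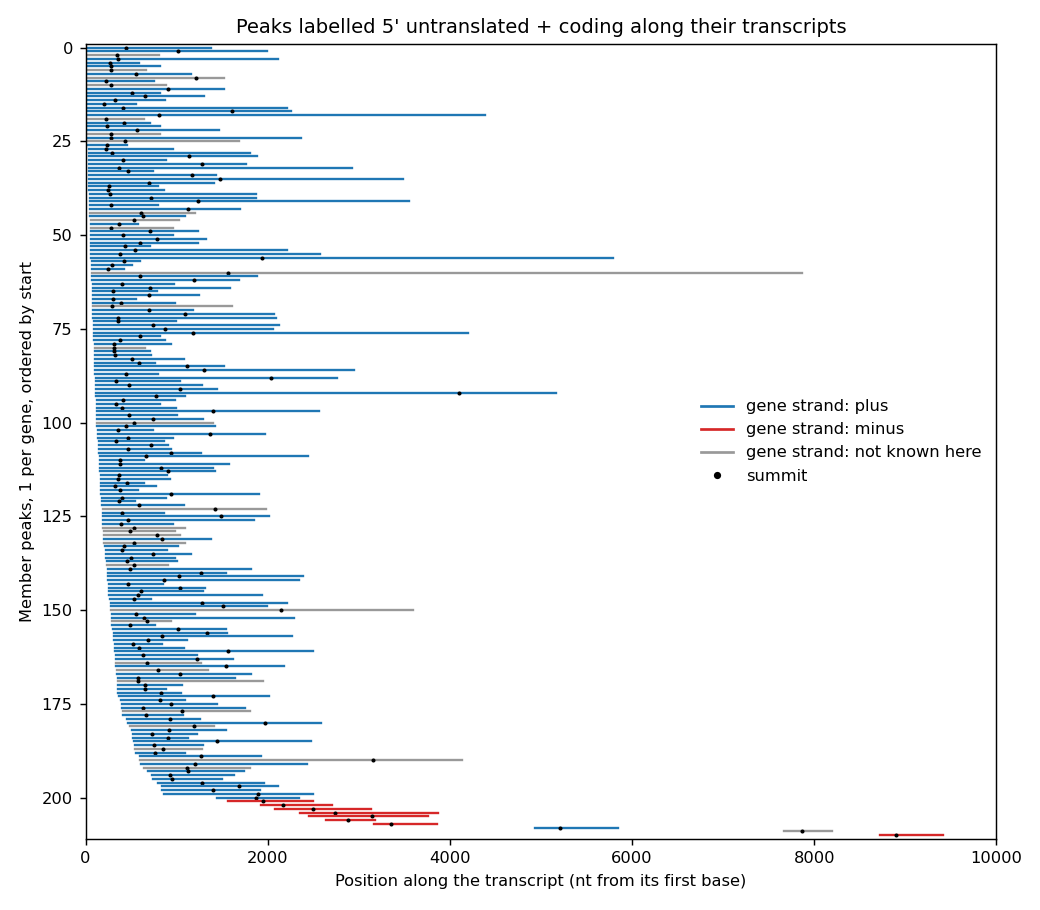
Each horizontal line is 1 of the 211 peaks from start to end in nt along its transcript, ordered by start, with the summit as a black point and the colour giving the strand of the gene. Of the lines, 155 begin within 300 nt, while all 8 lines of minus-strand genes begin at nt 1565 or later.

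The peaks nearest to the mRNA start were those of EGFR and KIF2A, both beginning at nt 2. EGFR encodes the epidermal growth factor receptor, and its peak ran from nt 2 to 1988 with 79 tags. SARS, the cytosolic seryl-tRNA synthetase, and SUPT5H, a subunit of the DSIF elongation factor, both had peaks beginning at nt 3, with 110 and 100 tags. HNRNPH3, a splicing regulator of the hnRNP H family, began at nt 6 with 22 tags. These peaks therefore took in nearly the whole start of the listed transcript. At the other end stood AFF4, a scaffold of the super elongation complex, with a peak at nt 8723 to 9412. It was followed by CNOT1, the scaffold of the CCR4-NOT deadenylase, at nt 7671 to 8190 and ANKHD1, an ankyrin-repeat protein, at nt 4930 to 5845. URGCP began at nt 3163 and MORC2, a chromatin-associated ATPase, at nt 2640. In the listed numbering these peaks lay far into the transcript, and 4 of the 5 had at most 16 tags (ANKHD1 had 34).

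The label went with the strand of the gene. RefSeq gave a strand for 180 of the 211 genes. Of these, 172 lay on the plus strand, where transcript and chromosome numbering run the same way, a share of 95.6% (interval 91.4 to 98.1%). Among all genes with a peak and a known strand the plus strand held 697 of 1391 (50.1%), and protein-coding genes in RefSeq lay there in 51.0% of cases. On plus-strand genes the 5′UTR-CDS peaks started at a median of nt 127 (quartiles 60.25 and 276.5). The 8 on minus-strand genes started at a median of nt 2400.5, with a range from nt 1565 to 8723, so that all 8 began beyond every plus-strand peak but that of ANKHD1. These 8 genes were DCTN1, NOL8, PPP1R18, C6orf62, ZSCAN29, AFF4, URGCP and MORC2, with 12 to 69 tags each.

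**Figure D2:**
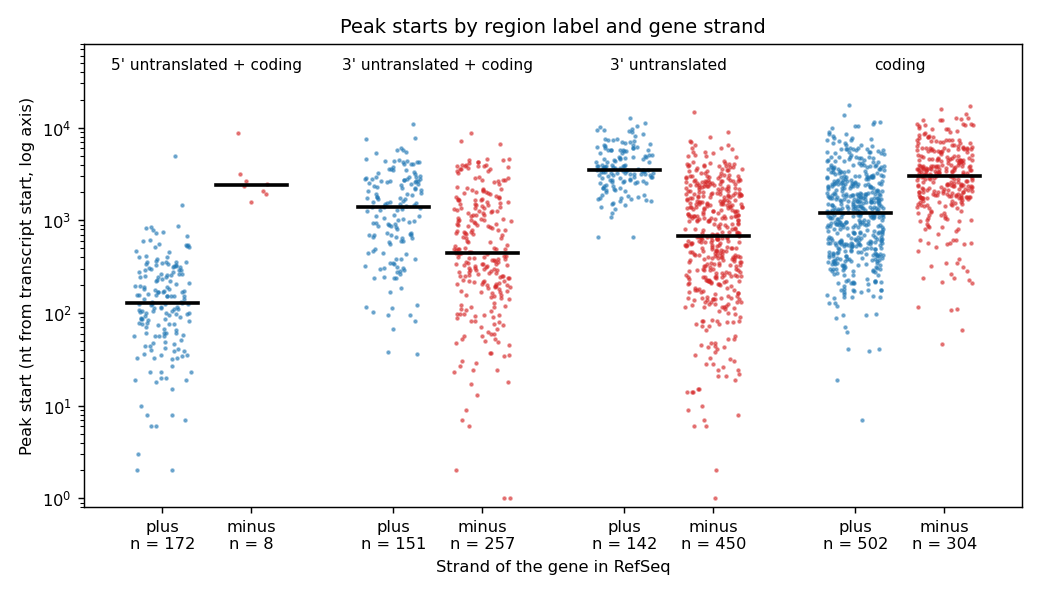
Peak starts in nt on a log axis for 4 region labels, split by the strand of the gene; each point is a peak and each bar the median. The 5′UTR-CDS label holds 172 plus-strand and 8 minus-strand peaks, with medians of nt 127 and 2400.5, while the 3′ labels start later on the plus strand and earlier on the minus strand.

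The 3′ labels showed the opposite arrangement, while coding peaks also started later on the minus strand (median nt 1212 on 502 plus-strand and nt 3014.5 on 304 minus-strand peaks). Peaks labelled 3′ untranslated plus coding started at a median of nt 1393 on 151 plus-strand peaks and nt 448 on 257 minus-strand peaks. Peaks labelled 3′ untranslated alone started at nt 3502.5 on the plus strand (142 peaks) and at nt 678.5 on the minus strand (450 peaks). Of the 102 3′ untranslated peaks on plus-strand transcripts with several peaks, 7 preceded all others. Of the 236 such peaks on minus-strand transcripts, 139 did so.

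Peaks that began within 300 nt of the transcript start numbered 254 on plus-strand and 249 on minus-strand genes. On the plus strand 133 of them (52.4%) carried the 5′UTR-CDS label, 58 the coding label and 36 the label of both untranslated regions. A further 21 were labelled 3′ untranslated plus coding and 0 of the 254 were labelled 3′ untranslated alone, which at a floor of 3 counts of the total allows a share of up to 1.18%. On the minus strand 0 of 249 carried the 5′UTR-CDS label, which by the same floor allows up to 1.20%. There, 136 were labelled 3′ untranslated and 100 were labelled 3′ untranslated plus coding. Peaks at the start of the listed numbering thus carried different labels on plus-strand and minus-strand genes. Where the strand was known, the 211 peaks lay mainly on plus-strand genes. Even there the label took in only 133 of the 254 peaks that began within 300 nt. The cause of the difference in labels between the strands was not tested.

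**Figure D3:**
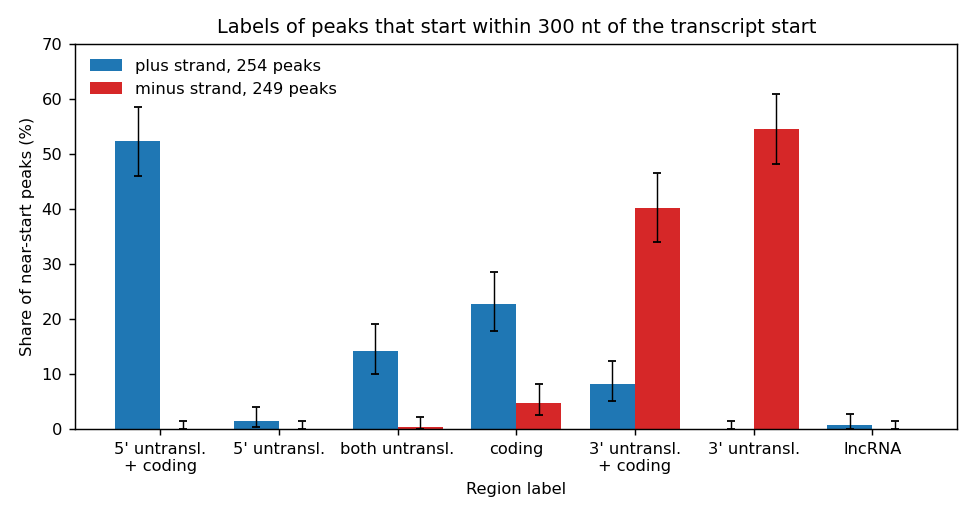
Share of each region label, in percent, among peaks beginning within 300 nt of the transcript start, for 254 peaks of plus-strand and 249 of minus-strand genes; error bars are exact binomial 95% intervals. The 5′UTR-CDS label reaches 52.4% on the plus strand and 0% on the minus strand, where the 3′ labels take over.

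Near-identical genes gave examples, which were picked after the values were seen. EIF3C encodes a core subunit of the initiation factor eIF3 that brings mRNA and the small ribosomal subunit together. Its 5′UTR-CDS peak at nt 93 to 2055 held 331 tags (exact Poisson 95% interval 296 to 369). Its copy EIF3CL, whose strand was not in the table used, had a peak at nt 30 to 1995 with 312 tags (278 to 349), labelled 3′ untranslated plus coding. SRGAP2C, a human-specific partial copy of the GTPase-activating gene SRGAP2, lies on the plus strand. Its 5′UTR-CDS peak at nt 727 to 1634 had 26 tags. SRGAP2B on the minus strand had a peak at nt 718 to 1606 with 25 tags, labelled 3′ untranslated. The summits of the SRGAP2 pair lay at nt 928 and 1389. In both pairs, peaks with similar starts and ends in the listed numbering took different labels, though the SRGAP2 summits lay apart. Whether the same fragments were counted for both copies is not known.

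On single minus-strand transcripts the 5′UTR-CDS label also came after coding or 3′ labels, or before a 5′ untranslated one. In MORC2 the 5′UTR-CDS peak at nt 2640 to 3175 was followed by a peak labelled 5′ untranslated at nt 3217 to 3779. In AFF4 the 3′ untranslated peaks at nt 353 to 3240 and 3985 to 5291 came before the coding peak at nt 7155 to 8342 and the 5′UTR-CDS peak. DCTN1, the p150 subunit of dynactin, had coding peaks at nt 213 to 679 and 768 to 2197 ahead of its 5′UTR-CDS peak at nt 2451 to 3764. CNOT1, whose strand was not in the table used, had a 3′ untranslated plus coding peak at nt 843 to 4844 and a 5′UTR-CDS peak as the last of its 3. The other 2 of the 5 exceptions to the leading position were plus-strand genes. In CPEB4, a cytoplasmic polyadenylation element-binding protein, and in ANKHD1 the peaks ahead of the 5′UTR-CDS peak were labelled 5′ untranslated.

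The peaks were 355 to 7794 nt long, with a median of 977 nt (quartiles 748 and 1601.5), against 938.5 nt for all peaks. Coding-only and 3′ untranslated peaks were shorter, with medians of 889 and 809 nt, and the other labels that span a boundary were longer, at 1292 nt for 3′ untranslated plus coding and 2007.5 nt for both untranslated regions. The 5′UTR-CDS peaks therefore extended well past the transcript start in most cases. The summit lay at a median of 0.41 of the peak length, nearer to the 5′ side, and in 141 of 211 peaks (66.8%, interval 60.0 to 73.1%) its offset from the start was under 50% of the length. This was so for 53.3% of coding-only peaks. Among peaks beginning within 300 nt, it held for 67.7% of the 155 5′UTR-CDS peaks, 60.3% of the plus-strand peaks with other labels and 62.7% of the minus-strand peaks, and these intervals overlap. Beyond 300 nt it held for 52.1% of 1846 peaks.

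Tags per peak ran from 11 to 779, with a median of 35 and quartiles of 19 and 67. The median was 24 for coding-only, 22 for 3′ untranslated and 46 for 3′ untranslated plus coding peaks. Per length, the median was 32.7 tags per kb of peak (quartiles 24.3 and 44.5), against 27.0 and 26.9 for coding-only and 3′ untranslated peaks and 33.5 for 3′ untranslated plus coding. Among peaks that began within 300 nt, the 133 plus-strand 5′UTR-CDS peaks had medians of 36 tags and 31.9 tags per kb. The 58 plus-strand coding peaks there had 32 and 32.4, and the 136 minus-strand 3′ untranslated peaks 32 and 33.2. The 100 minus-strand 3′ untranslated plus coding peaks had 65.5 and 38.8. The 36 plus-strand peaks of both untranslated regions had 128 and 65.8. At least 100 tags were found in 29 of the 211 peaks (13.7%, interval 9.40 to 19.1%), where 11.1% of all 2440 peaks reached that number. The 10 peaks with the most tags held 26.2% of the tags of the 211, while 54 peaks had fewer than 20. Across the 211 peaks, tags followed length closely (Spearman's rank correlation 0.89, Pearson's r 0.89 on the log2 scale; a description of peaks from 1 library).

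**Figure D4:**
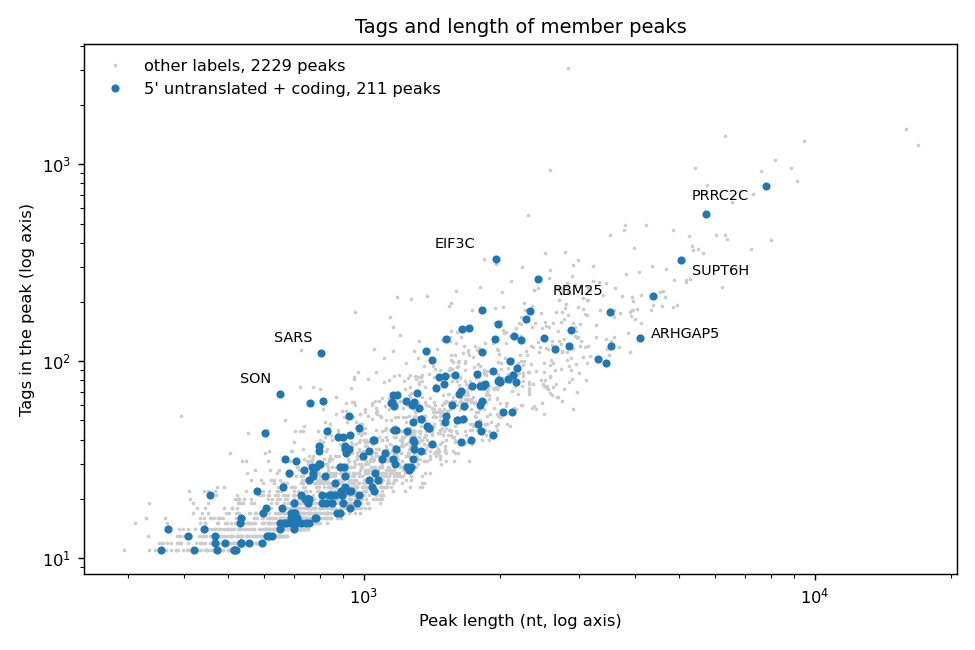
Tags against peak length in nt, both on log axes, for the 211 5′UTR-CDS peaks (blue) and 2229 other peaks (grey); each point is a peak. Tags rise with length, and SARS, SON and EIF3C lie above most peaks of their length.

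PRRC2C, an RNA-associated proline-rich protein, had a peak at nt 61 to 5795 with 556 tags (511 to 604) and its summit at nt 1938. SUPT6H, a histone chaperone of transcribing RNA polymerase, had 325 tags at nt 115 to 5170. Its summit lay far downstream at nt 4101. SPTAN1, the spectrin alpha chain, had 215 tags at nt 20 to 4388 with the summit at nt 807, and ARHGAP5, a GTPase-activating protein, had 131 tags at nt 95 to 4195. These 4 genes are among the 5 with the longest 5′UTR-CDS peaks. The peak covered several kb in each, so the label says little about where in the mRNA the tags were densest.

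The shortest peaks were those of ZC3H7B (355 nt, 11 tags), PPP1R9A (369 nt, 14 tags), LARP1B (408 nt, 13 tags), PCNT (421 nt, 11 tags) and ASNSD1 (442 nt, 14 tags). ZC3H7B is a zinc finger protein, PPP1R9A encodes neurabin, LARP1B is a La-related protein and PCNT is the centrosomal scaffold pericentrin. Their starts lay between nt 32 and 180 and each summit lay near the middle of the peak, at 0.50 of the length. Each rests on few tags: for ZC3H7B the interval ran from 5.49 to 19.7.

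Ranked per length, EIF3C led with 169 tags per kb, followed by SARS with 137, RBM25 with 107 and SON with 104. RBM25 is a splicing regulator with an arginine-glutamate-rich stretch, and its peak at nt 124 to 2558 held 261 tags (230 to 295). SON is a large scaffold of nuclear speckles, and its peak at nt 416 to 1068 held 68 tags (52.8 to 86.2). The 10 genes with the most tags also included TOP1, DNA topoisomerase I (181 tags, nt 44 to 1873), CTNNA1 (179), PRRC2B, a relative of PRRC2C (177, nt 46 to 3551), and HNRNPUL1, a nuclear RNA-binding protein (164, nt 154 to 2445).

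The fold enrichment is the authors' own value for each peak. It is used here only within the list, to rank, count and compare peaks and, in the alternatives, to choose peaks or transcripts. It ran from 3.25 to 44.57 over the 211 peaks, with a median of 7.98 against 7.38 for all peaks. A fold of at least 10 was reached by 68 of the 211 (32.2%, interval 26.0 to 39.0%) and by 25.5% of all 2440 peaks. The highest were PRRC2C at 44.57, RBM25 and SON at 34.73, the kinase gene MAP4K4 at 31.84 and REST, a repressor of neuronal genes, at 27.78. MAP4K4 had 147 tags at nt 278 to 1991, and REST had 129 at nt 312 to 2265. The folds of 132 5′UTR-CDS peaks, these 5 among them, were whole multiples of 0.5788 to within 0.0051. The share was 62.6%, against 70.8% of peaks with other labels. Peaks on the multiples had a median of 27.5 tags and the 79 others a median of 47. Tags and fold rose together over the 211 peaks (Spearman's rank correlation 0.54). Some genes with many tags still had a low fold: SARS stood at 3.34, CTNNA1 at 4.29 and EIF3C at 7.47, none of them on the multiples.

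Of the KEGG pathways that the authors joined to the transcripts, spliceosome and RNA transport held the most of the 211 genes. The spliceosome pathway held 10 of the 211 genes, 37.0% of its 27 genes with a peak, and RNA transport also held 10, 21.3% of its 47. Over all genes with a peak, 12.7% had a 5′UTR-CDS peak. In the spliceosome group tags ran from 18 to 261. RBM25 led, and HNRNPM, an hnRNP that regulates alternative splicing, followed with 102 tags at nt 155 to 1572. U2SURP, associated with the U2 snRNP, had 78 tags, the helicase gene DDX46 had 67 and CDC5L of the Prp19 complex had 63. The tri-snRNP genes PRPF4, PRPF6 and PRPF3 had 62, 53 and 18 tags, and the helicases DHX38 and DDX42 had 55 and 21. Only CDC5L and DDX42 had a further peak on the chosen transcript, and in both the 5′UTR-CDS peak came first. No test of enrichment was made, and the pathways were chosen by their counts. On the chosen transcripts the label was nearly limited to plus-strand genes, and the strands of the pathway genes were not taken into account.

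In RNA transport, EIF3C led, followed by EIF5B, the GTPase that joins the ribosomal subunits at the start codon (131 tags at nt 61 to 2569, summit at nt 380). XPOT, the exportin of tRNAs, had 112 tags. The RNA-binding genes FXR1 and FMR1 had 89 and 44. PNN and SRRM1, both linked to the exon junction complex, had 84 and 59. TGS1, which hypermethylates caps of small nuclear RNAs, had 46, and the nuclear pore genes POM121 and RANBP2 had 29 and 21. EIF3C and EIF5B were also the 2 of 7 translation initiation factor genes with a peak that carried the label; EIF4G1, EIF4G3, EIF4H, EIF3A and EIF2S3 had peaks with other labels.

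In the endocytosis pathway 7 of 45 genes with a peak (15.6%) had a 5′UTR-CDS peak, and in the PI3K-Akt pathway 5 of 36 (13.9%), both near the 12.7% of all genes with a peak. Endocytosis was led by EGFR and by ASAP2, an Arf GTPase-activating protein (75 tags at nt 340 to 2176). The ubiquitin ligases NEDD4L and ITCH had 75 and 32 tags, the Rab5 effector RABEP1 had 60, the deubiquitinase USP8 had 40 and the sorting nexin SNX1 had 29. The 5 PI3K-Akt genes were EGFR, PKN2, RPS6KB1, OSMR and TSC2. PKN2, a protein kinase of the PKN family, had 29 tags at nt 333 to 1220, and RPS6KB1, the S6 kinase, also had 29. The oncostatin M receptor OSMR had 23 and the tuberin gene TSC2 16.

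Cell junctions are the site of the best-known structural role of beta-catenin. In the tight junction pathway 5 of 28 genes with a peak (17.9%) had a 5′UTR-CDS peak, against 12.7% over all genes with a peak. SPTAN1 led, followed by CTNNA1, which encodes alpha-catenin, the partner that beta-catenin binds directly. The CTNNA1 peak ran from nt 27 to 2361 with 179 tags (154 to 207), and its summit at nt 282 lay at 0.11 of the length, the lowest such value among the 211. CTTN, the actin-binding cortactin, had 130 tags at nt 85 to 1607 with its summit at nt 296. AFDN, the nectin-binding afadin, had 21 tags (13.0 to 32.1) at nt 103 to 1079, and the motin AMOTL1 had 19. Proteoglycans in cancer also held 5 genes, 12.5% of its 40 with a peak, among them CTTN and EGFR. In the adherens junction list CTNNA1 and AFDN were 2 of 11 genes with any peak. CTNNB1, which encodes beta-catenin, had a peak with another label. Of the 8 Wnt pathway genes with a peak 0 carried the label, where the share over all genes was 12.7%. So small a list says little, and on the chosen transcripts the label was nearly limited to plus-strand genes.

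Further lists bear on the 5′ end of mRNAs, and they too are small against a share of 12.7% over all genes. Of mRNAs known for regulation by upstream reading frames, 4 of 20 had a peak, and 0 of these carried the label. For mRNAs known for long structured 5′ untranslated regions these counts were 8 of 20 and 0. For mRNAs with a 5′ terminal oligopyrimidine tract, outside the ribosomal proteins, they were 5 of 20 and 0. Chromatin regulators had a peak in 22 of 23 cases, and CHD7 alone carried the label, with 15 tags at nt 292 to 942. Among genes of very large proteins 2 of 23 with a peak carried it, SPTAN1 among them, and among secreted and membrane proteins EGFR did, 1 of 12. EGFR was also 1 of 3 mesenchymal and basal breast cancer markers with a peak, beside FN1 and ZEB1. VIM and CD44, which mark this line, had no listed peak, nor did any of 8 luminal or 5 immune and blood markers. In all, 8 of the 99 list genes with a peak (207 genes listed) had a 5′UTR-CDS peak. The strands of the list genes were not taken into account.

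Of the 211 genes, 125 had no other peak on the chosen transcript and 86 (40.8%, interval 34.1 to 47.7%) had 133 more. Among the 1447 other genes 30.1% had more than 1 peak. A gene with more peaks has more chances to hold a labelled one, so these shares are not directly comparable. The further peaks were labelled coding in 62 cases, 3′ untranslated plus coding in 45, 3′ untranslated in 22 and 5′ untranslated in 4. The 5′UTR-CDS peak held a median of 41.9% of the tags of such a transcript (quartiles 27.7 and 62.2%). It had the most tags in 41 of the 86, tied in 3 and had fewer than another peak in 42. It was the densest per kb in 48 and had the highest fold in 49, with 6 ties. The gap to the next peak had a median of 317 nt and was under 200 nt in 31 of 82 transcripts with a later peak.

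In several mRNAs the tags of the 5′UTR-CDS peak were a small part of those in all listed peaks of the transcript. RANBP2, a giant nucleoporin, had 21 tags in its 5′UTR-CDS peak and 18, 77, 35 and 81 in the 4 coding peaks after it. AFDN had 21 there and 22, 14, 64 and 22 in its later peaks. EGFR had 79 at nt 2 to 1988 and 173 at nt 2178 to 5738, with 35 and 31 in 2 further peaks labelled 3′ untranslated. CENPF, a kinetochore protein, had 61 tags, 8.76% of its 696, before a coding peak with 250 and a 3′ untranslated plus coding peak with 385. Tag counts do not take peak length into account. Per length the 5′UTR-CDS peak of CENPF was the densest on its transcript, at 80.3 tags per kb against 72.6 and 72.0. That of RANBP2 was the least dense, at 24.3 against 24.5 to 35.9. In PCNT all 5 peaks had 11 to 26 tags.

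In others the 5′UTR-CDS peak stood out. In SON it held 68 tags at 104 tags per kb and was followed by 3 coding peaks with 13, 11 and 13 tags, none above 28.3 tags per kb, before a final peak with 176 tags at 71.1 per kb. PRRC2C held 556 of its 694 tags in the 5′UTR-CDS peak, with 90 and 48 in the peaks that followed. That peak was 5735 nt long, against 1681 and 1878 nt, a difference that the tag share does not take into account. Per length it held 96.9 tags per kb, against 53.5 and 25.6. REST held 129 of 162, PRRC2B 177 of 206 and MAP4K4 147 of 265. NFAT5, the osmotic stress transcription factor, had 59 tags at 50.6 per kb, against 29, 58, 21 and 19 tags in its 4 later peaks, at 18.7 to 35.8 per kb.

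**Figure D5:**
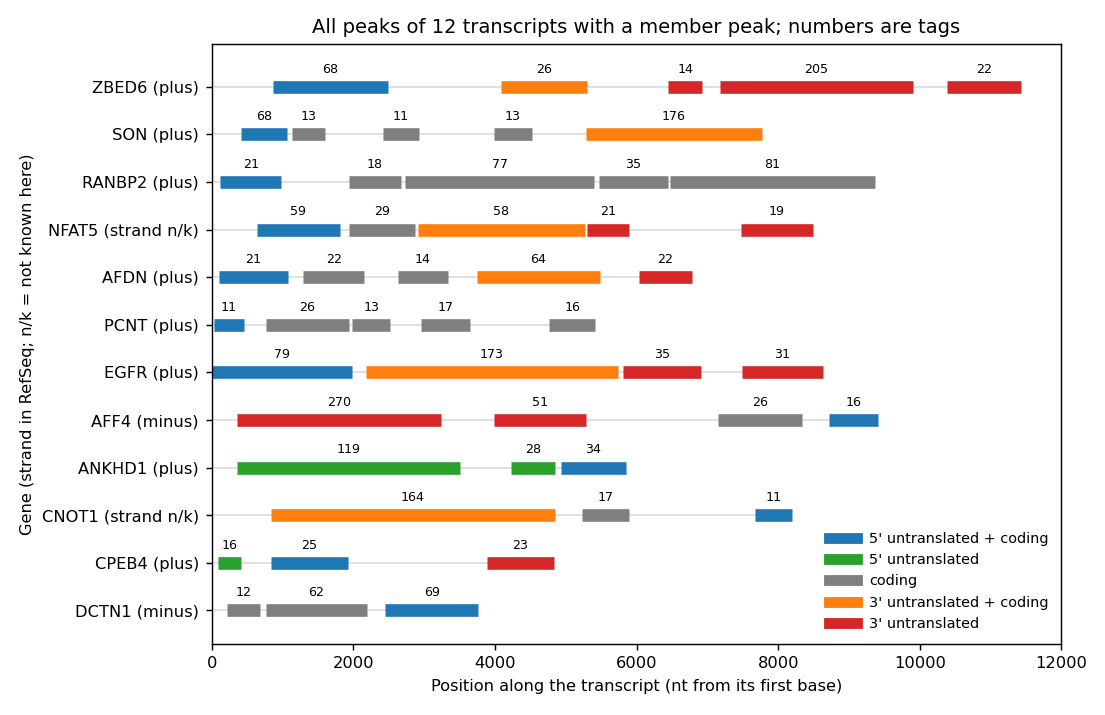
All listed peaks of 12 transcripts in nt along the transcript, coloured by region label, with the tags of each peak above it. The 5′UTR-CDS peak (blue) comes ahead of the others in the upper 7 genes, and after other peaks in AFF4, ANKHD1, CNOT1, CPEB4 and DCTN1.

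Some peaks may count the same fragments under different symbols. ZBED6, a transcription factor encoded within an intron of ZC3H11A, had 5 peaks with 68, 26, 14, 205 and 22 tags. The listed transcript of ZC3H11A had 5 peaks of equal lengths with these same counts, but there the peak of 68 tags was labelled 5′ untranslated. RBM27 and the clone-named symbol RP11-449H3.3 had 5′UTR-CDS peaks with 61 and 62 tags and a fold of 23.73 each. Such pairs are not independent, and the count of 211 genes includes both RBM27 and RP11-449H3.3.

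Transcript choice also moved the label. Of the 288 genes, 64 had 1 listed transcript and 68 more had the label on all of several listed transcripts. In the other 156 some transcripts had it and others did not. KLC1, a kinesin light chain, had the label on all 14 of its listed transcripts, 13 of them with the same 726 nt and 21 tags. ADD1 had it on 8 transcripts with starts from nt 8 to 851, and 20 to 27 tags. REST ranged from 16 to 129 tags over 3 transcripts, the widest range among the 138 genes with several labelled transcripts. In 77 genes the transcript with the most tags lacked the label. Of these, 42 lay on the plus and 27 on the minus strand. Of the 249 genes with the label on any transcript and a known strand, 214 (85.9%, interval 81.0 to 90.0%) lay on the plus strand. Over all transcripts with a known strand, 468 of 505 5′UTR-CDS peaks (92.7%) lay on plus-strand genes, with a median start at nt 117. The 37 on minus-strand genes had a median start at nt 1746, and 6 of them began within 300 nt.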

How the data were processed

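The file used belongs to the IP library and lists peaks along Ensembl transcripts, 1 row per peak and transcript. Tags are a raw count per peak that the authors deposited. Fold enrichment is a ratio that the authors' peak caller gave, per the file headers, with no stated denominator. A deposited column whose name was lost to a spreadsheet is called the score here and served only for filtering. The genome build named in the submitters' processing notes is hg18; the aligner, caller and annotation were not given in the sources used here. Each deposited summit is an offset, turned into a position as start plus offset minus 1. The total depth is unknown.

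Members were the rows labelled 5_utr|CDS. Each symbol kept the transcript with the most summed tags (ties: lowest ID). Symbols were matched to RefSeq tables (GRCh38.p14) by current symbol or an unambiguous older one: 1638 of 1658 matched, 208 of the 211. Strand came from the RefSeq promoter table, which held 180 of the 211; its coordinates were used only for the printed 5′ ends. Intervals are exact, Clopper-Pearson for shares and Poisson for tags, at 95%. Without molecular identifiers tags are not independent molecules.

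Named genes were those with extreme tags, tags per kb, fold, length, start or peak number, the exceptions to the leading position, and the 2 highest of each list and of the 5 largest KEGG pathways. Members and lists were chosen with earlier results of these data known. A gene that the rule also names is not reported here. The other genes named in pathways, copies and multi-peak transcripts were chosen after their values were seen. Functions were tested on simulated data (Python 3.11.15, pandas 2.3.3, scipy 1.17.1).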

Additional observations from a re-analysis of the deposited data

How the results depend on the processing

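Alternatives counted every transcript, set a score minimum of 50 or 100 or a fold minimum of 4, or chose the transcript by fold. The strand comparison and the labels near the start, with all their settings (the limit of 300 nt included), and the restriction to plus-strand genes were chosen after seeing the data. Of 69 alternative values, 52 stayed inside the exact 95% interval of the main value or, for counts, within 1.5 times. A score of at least 100 gave a share of 10.9% of peaks, 90 genes, a median length of 1582.5 nt, a median of 68 tags and 43.2 tags per kb, a median summit at nt 779, 28.9% of genes with another peak and 98.6% on the plus strand. A score of at least 50 gave 1280 nt, 46 tags, 38.04 tags per kb and 30.7% with another peak. These minimums remove weak peaks by construction. With every transcript counted, 33.2% had another peak. The 5′UTR-CDS share of plus-strand peaks near the start was 66.0%, 60.4% and 43.2% for limits of 100, 200 and 500 nt, against 52.4%; the share of 3′ labels on the minus strand was 98.0% at 100 nt, against 94.8%. No paired analysis was possible because the IP and the input are single libraries. The median peak had 35 tags, so most single values carry wide counting error.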

Other observations

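Gene Ontology terms joined by the authors gave a broader view of the 211 genes; the terms were picked after values were seen. RNA binding was given for 58 of the 211 (27.5%, exact interval 21.6 to 34.0%) and for 19.96% of all 1658 genes with a peak. Their 5′UTR-CDS peaks had a median of 49 tags and a median start at nt 104.5. The cytoskeleton term covered 22.7% against 18.8%. Nucleus stood at 61.6% against 58.8%, DNA binding at 19.9% against 20.1%, plasma membrane at 18.5% against 21.0% and mitochondrion at 3.79% against 6.33%. Apart from RNA binding, the share over all genes lay inside the interval of the 211 for each of these terms. Genes are not replicates, no enrichment was tested and the strands of the genes were not taken into account.

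Motor, centrosome and chromosome genes were looked at after values were seen, with no list fixed for them. The kinesins KIF1B, KIF3B and KIF2A had 115, 55 and 47 tags. CEP250, which links centrioles, had 120 tags at nt 596 to 4132, PCM1, the scaffold of centriolar satellites, had 103 at nt 278 to 3590 and AKAP9, a centrosomal and Golgi anchoring protein, had 98 at nt 39 to 3486. ODF2 had 81 and CEP55, needed for abscission, had 58. The dynein regulators PAFAH1B1 and NDE1 had 25 and 20. In chromosome structure, SMC3 of cohesin had 155 tags at nt 86 to 2072, CTCF had 44 and the cohesin loader NIPBL 18.

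Of 14 RNA degradation genes with a peak, 4 had a 5′UTR-CDS peak (28.6%, against 12.7% over all genes with a peak). The strands of these genes were not taken into account. XRN2, the nuclear 5′ to 3′ exonuclease, had 144 tags at nt 35 to 2920 with its summit at nt 372 and a fold of 3.79, while the others, CNOT6, DIS3L and CNOT1, were far lower, the last with 11 tags.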
